A study of Mus musculus with 6 samples.

Results

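The expression of 44 genes of the cell cycle and of DNA replication was examined in glomeruli, the filtering units of the kidney, of mice that lack dendrin (Ddn). The genes were taken as a list of names. Of the 44, 19 act in S phase, when DNA is copied, 22 act in G2 or mitosis, when the copies are separated, and 3 are the D cyclins, which act before S phase. A probe set counted for a gene only where the array annotation assigned it to that gene alone, and the brightest such probe set over the 6 arrays stood for the gene. By this rule 43 of the 44 genes were measured, by 100 of the 45101 probe sets, among 18194 genes in all. Ccnb1, which encodes cyclin B1, had no such probe set and was not analysed here.

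Glomeruli of 3 dendrin knockout mice were set against those of 3 littermate control mice with intact Ddn. In the knockout mice both Ddn coding exons were replaced in the germ line by a cassette with eGFP and neomycin resistance, so no cell type retained the gene. All 6 mice were untreated and 13 months old, and the labels give the background 129S6SvEv/C57BL6, while the study's methods state that the mice had been backcrossed onto C57BL/6. Total RNA of isolated glomeruli from each mouse was hybridised to 1 Affymetrix whole-genome mouse array. Replicates were therefore separate animals, and all values below are log2 GCRMA values, a background-corrected and normalised intensity. Ddn read 3.80, 3.81 and 3.80 in knockout glomeruli and 12.22, 12.81 and 12.31 in control glomeruli.

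Cells that enter the cycle switch on genes in waves. E2F transcription factors drive the enzymes and helicases that copy DNA, and the genes of mitosis follow, many of them through a promoter element called CHR that lies near CCAAT boxes. Podocytes, the glomerular cells in which dendrin is found, are known as cells that do not normally divide, and few cells of an adult glomerulus are in cycle.

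Promoters of the list were searched for the elements of both waves. RefSeq promoter sequences of GRCm38.p6, reaching from 250 bases before to 50 bases after the gene start, were matched for 34 of the 44 genes, of which 16 act in S phase, 17 in mitosis and 1 is a D cyclin. Both strands were searched for the E2F letters TTTGGCGC, TTTCCCGC, TTTCGCGC and TTTGCCGC, for the CHR letters TTTGAA and for CCAAT. E2F matches on opposite strands can overlap and were then counted apart. An E2F match stood in 8 of 16 S phase promoters (50%) and in 1 of 17 mitosis promoters (5.88%), against 2.32% of all 27025 promoters. A CHR match stood in 1 of 16 S phase promoters (6.25%) and in 11 of 17 mitosis promoters (64.7%), against 18.1% of all promoters. CCAAT stood in 11 of 16 S phase promoters (68.8%) and 15 of 17 mitosis promoters (88.2%), against 37.9% of all promoters. Each of the 11 mitosis promoters with a CHR match also held CCAAT, a pair that 7.12% of all promoters held.

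The 150 bases before the start are given for 5 genes to which the results return. Cdk1 (chr10:69352913-69353062, minus strand), Ccnb2 (chr9:70421555-70421704, minus strand) and Top2a (chr11:99024190-99024339, minus strand) had the 3 largest differences of the mitosis genes above background. Rrm2 (chr12:24708104-24708253, plus strand) had the largest difference of the S phase genes, and Mcm6 (chr1:128359706-128359855, minus strand) is shown as a helicase subunit. Letters run 5′ to 3′ along the gene, and capitals mark matches on either strand, so ATTGG is CCAAT and TTCAAA is TTTGAA read on the other strand.
Cdk1: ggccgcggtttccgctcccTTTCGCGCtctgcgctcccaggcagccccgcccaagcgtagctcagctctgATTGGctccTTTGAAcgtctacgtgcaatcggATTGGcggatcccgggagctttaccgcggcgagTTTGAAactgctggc
Ccnb2: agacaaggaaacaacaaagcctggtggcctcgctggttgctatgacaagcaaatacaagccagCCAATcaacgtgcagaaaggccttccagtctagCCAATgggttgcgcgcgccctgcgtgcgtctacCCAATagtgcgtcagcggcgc
Top2a: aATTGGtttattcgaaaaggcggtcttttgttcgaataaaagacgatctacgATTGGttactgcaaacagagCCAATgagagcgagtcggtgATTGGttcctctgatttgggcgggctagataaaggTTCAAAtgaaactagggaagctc
Rrm2: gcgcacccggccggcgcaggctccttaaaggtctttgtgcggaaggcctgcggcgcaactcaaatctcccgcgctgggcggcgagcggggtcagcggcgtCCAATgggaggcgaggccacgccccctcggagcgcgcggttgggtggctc
Mcm6: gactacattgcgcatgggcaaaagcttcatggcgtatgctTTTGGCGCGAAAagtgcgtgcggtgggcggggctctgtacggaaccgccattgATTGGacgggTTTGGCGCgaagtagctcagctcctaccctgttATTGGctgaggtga
The Cdk1 stretch held 2 CHR matches and 2 CCAAT boxes beside 1 E2F match, which lay farthest from the start. The Ccnb2 stretch held 3 evenly spaced CCAAT boxes, and the CHR match nearest its start began just past it, outside the printed letters. Top2a showed a row of CCAAT boxes and then a CHR match. Rrm2 showed 1 CCAAT box and neither other element, whereas Mcm6 showed 3 E2F matches, of which 2 share bases. These matches describe letters, and binding was not measured in these glomeruli.

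One array, control 2, stood apart from the other 5 in markers of leukocytes and of loop, distal tubule and collecting duct. It did so less far in proximal tubule markers. Over 13 leukocyte markers, of which 3 were dim and Cd3e and Cd3g lay at the floor, the log2 of the summed level ranged between 13.72 and 14.56 in knockout glomeruli and between 11.92 and 14.65 in control glomeruli, and the lowest of these was control 2. Over 7 markers of loop, distal tubule and collecting duct, of which 2 were dim, it ranged between 11.47 and 11.95 in knockout glomeruli and between 11.49 and 13.70 in control glomeruli, and the highest was control 2. Over 8 proximal tubule markers, of which 3 were dim, it ranged between 13.41 and 13.75 in knockout glomeruli and between 13.60 and 13.74 in control glomeruli. Cyp4b1, with a mean of 13.55, made up most of this sum. The 5 above the dim level deviated from their own means by a median of 0.51 in control 2 and of -0.08 to 0.07 in the other arrays. Of these, Cyp4b1 and Aqp1 were not highest in control 2. All 8 proximal tubule markers were lower, by a median of -0.24. Aqp1 alone fell at an unadjusted limma p under 0.05 (-0.33), where 1.51% of all genes fell. Without control 2 the 5 above the dim level had a median of -0.06, with 2 higher and 3 lower. Over 3 erythroid markers, of which 2 were dim, the log2 of the summed level was 4.75 to 5.62 in knockout and 4.54 to 4.98 in control glomeruli. The 6 podocyte markers gave 16.53 to 16.63 in knockout glomeruli and 16.41 to 16.64 in control glomeruli. The podocyte markers were higher in all 6 cases by a median of 0.15, none at an unadjusted limma p under 0.05. The 8 glomerular endothelium markers summed to 15.84 to 15.97 in knockout glomeruli and 15.96 to 16.04 in control glomeruli. All 8 were lower by a median of -0.13, and Kdr, Flt1 and Emcn fell at an unadjusted limma p under 0.05, where 1.51% of all genes did. The 6 markers of mesangium and smooth muscle summed to 14.92 to 15.03 in knockout glomeruli and 14.88 to 15.04 in control glomeruli. Tagln, of smooth muscle, met the criterion used below with a difference of 0.68 and an unadjusted limma p of 0.0458. Of all genes, 0.126% met it in this direction. Acta2 and Myh11 differed by 0.44 and 0.41 without meeting it, and Pdgfrb, Itga8 and Gata3 by -0.05 to 0.01. Without control 2, 3 of the 6 markers met the criterion, and the share of all genes in that fit is not given. In RNA of whole glomeruli, fewer cells of a type and less RNA per cell cannot be told apart. Values without control 2 stand beside many of the results below, and the part that other cells played was not tested.

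Weak signal was more frequent among the mitosis genes than among the S phase genes. A gene was called dim where its mean over the 6 arrays was under 4, with the floor at 2.20. Of the 43 genes, 14 were dim, with means between 2.20 and 3.83, and 7 of them spanned less than 0.2 over the 6 arrays. Among all genes on the array 43.0% were dim. By class, 3 of 19 S phase genes were dim (Cdc6, which loads the helicase, Gins2, a part of the active helicase, and Tk1, which salvages thymidine), against 11 of 21 mitosis genes and none of the 3 D cyclins. The dim mitosis genes were the phosphatase gene Cdc25c, the kinase genes Aurka, Aurkb, Plk1, Bub1 and Bub1b, the motor genes Cenpe, Kif11 and Kif20a, the spindle factor gene Tpx2 and Ube2c, an enzyme gene of mitotic exit. The 29 genes above this level comprised 16 of S phase, 10 of mitosis and the 3 D cyclins.

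Few of the genes passed a test. The criterion was a fold over 1.5 with an unadjusted limma p under 0.05, in a fit over all probe sets. It was met by 1 of 43 genes, Rrm2, which rose, where 0.126% of all genes met it in this direction, and by none that fell, where 0.121% of all genes did. Without the fold, 2 of 43 genes (Rrm2 and Prim1) rose at an unadjusted p under 0.05, where 3.34% of all genes did, and none fell, where 1.51% did. After Benjamini-Hochberg adjustment over the whole array no gene of the list passed, all with a limma adjusted p of 1, and 0.00550% of all genes passed, which was Ddn alone. Of the 29 genes above the dim level, 3 (Rrm2, Prim1 and Cdk1) had every knockout array above every control array, where 9.36% of such genes did. Rrm2 passed this level only through its knockout arrays, its control mean being 3.76, so its place among the 29 carries no weight, and without it 2 of 28 genes lay above. Likewise 2 (Mcm2 and Ccnd2) had every knockout array below every control array, where 4.50% did. With 3 mice against 3 the exact permutation test reaches no p below 0.1.

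The directions leaned upward by small amounts. Of the 29 genes, 21 were higher and 8 lower in knockout than in control glomeruli, with a median difference of 0.09 on the log2 scale. All genes above the dim level had a median difference of 0.03, and 60.0% of them were higher. Without Rrm2, 20 of 28 genes were higher, with a median of 0.08, and in S phase 10 of 15, with a median of 0.05. The plot of differences by class shows the genes apart. In mitosis 9 of 10 genes were higher, with a median of 0.39, while in S phase 11 of 16 were higher, with a median of 0.06, and 10 of the 16 lay within 0.1 of no difference. The S phase median minus the mitosis median was -0.33. This gap depended on which genes were read. With dim genes included the mitosis median was 0.10 and the S phase minus mitosis value -0.053, and over genes with a mean of at least 6 they were 0.095 and -0.045. These medians describe the list and carry no test, and no mitosis gene passed the criterion or an unadjusted p under 0.05.

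**Figure D1:**
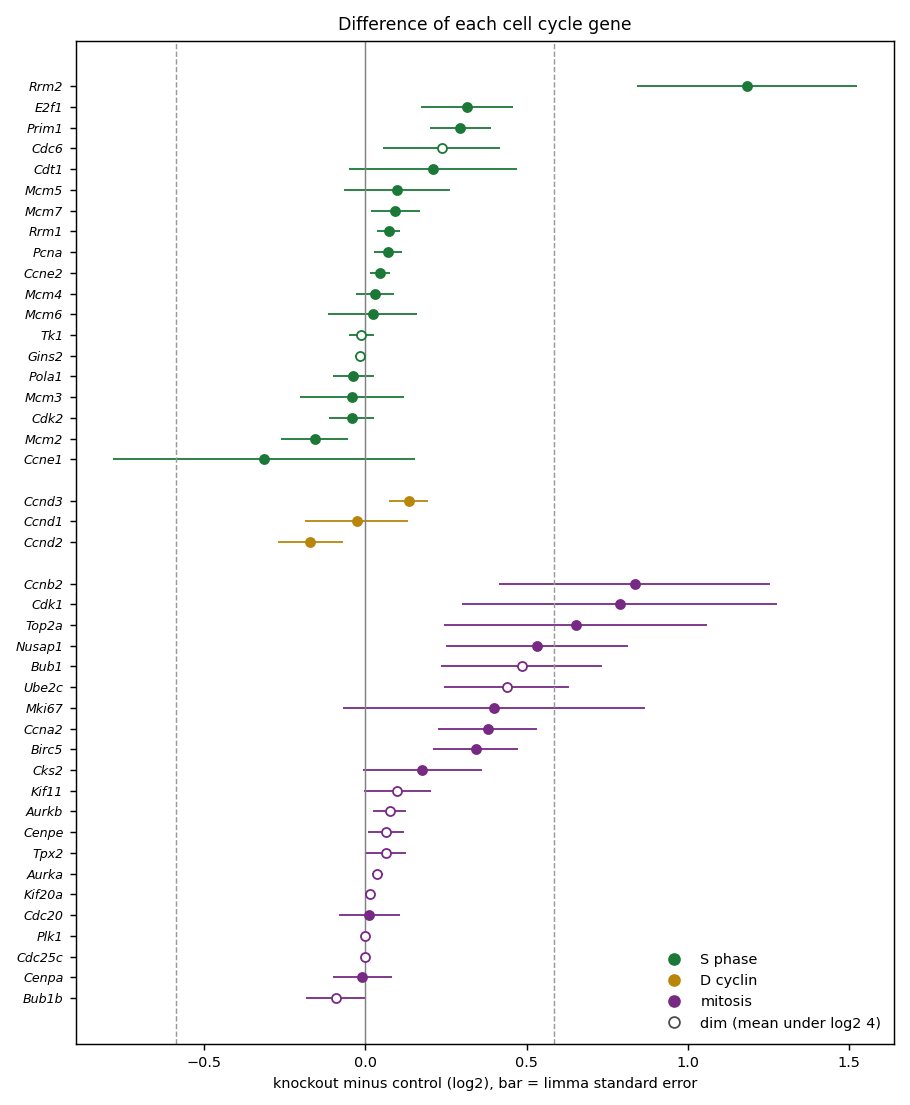
Knockout minus control difference (log2) of each measured gene, with its limma standard error as a bar, by class, with dim genes as open points and the 1.5-fold limits as dashed lines. The filled mitosis points range between -0.01 and 0.84, while 10 of the 16 filled S phase points lie within 0.1 of 0.

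Nucleotide supply held the gene with the largest difference. Rrm2 encodes the small subunit of ribonucleotide reductase, which makes the deoxynucleotides for DNA and whose level in cells peaks in S phase. It read 5.0, 4.97 and 4.87 in knockout glomeruli and 4.46, 3.32 and 3.51 in control glomeruli. The knockout arrays lay close together and above all controls, and of the controls 2 read under 4. The mean was 4.95 ± 0.06 in knockout and 3.76 ± 0.61 in control glomeruli (SD, n = 3 each), a difference of 1.18 (standard error 0.34), or 2.27-fold, with a limma unadjusted p of 0.0226. When arrays were left out in turn, the difference ran between 0.96 and 1.53, but the criterion was met only in the run without control 1. Without control 2 the difference was 0.96 and the unadjusted limma p 0.0592, and with 16 added to the unlogged values, which shrinks differences near the floor, the difference was 0.64.

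The 3 probe sets of Rrm2 did not give the same picture. The value above came from a probe set with the suffix _x_at, which marks probes that may also bind other transcripts. The second read 3.74, 3.32 and 3.33 in knockout glomeruli and 3.37, 3.30 and 3.30 in control glomeruli, so that its groups overlapped at a dim level. Its difference was 0.14 with an unadjusted limma p of 0.358, and the remaining probe set did not vary. Averaged over its probe sets, Rrm2 differed by 0.44 and no longer met the criterion. Rrm1, the large subunit of the same enzyme, averaged 8.18 ± 0.03 in knockout and 8.10 ± 0.05 in control glomeruli (SD, n = 3 each), a difference of 0.07 (standard error 0.04.)

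The helicase subunits all read above the dim level and differed little. Mcm2 to Mcm7 form the ring that unwinds DNA, and their means lay between 7.09 and 9.13. Mcm2 read 7.05, 6.96 and 7.03 in knockout glomeruli and 7.37, 7.08 and 7.05 in control glomeruli. All knockout arrays were lower, but the margin to the lowest control was under the spread of the arrays. The difference of -0.16 had a standard error of 0.10 and an unadjusted limma p of 0.198. The other Mcm2 probe set, with a mean of 5.06, differed by -0.004, and its groups overlapped. The other 5 subunits differed by -0.04 (Mcm3), 0.03 (Mcm4), 0.10 (Mcm5), 0.02 (Mcm6) and 0.09 (Mcm7), each by less than 1.3 standard errors, and their groups overlapped. Mcm6, whose promoter is printed above, averaged 8.99 ± 0.08 in knockout and 8.96 ± 0.23 in control glomeruli (SD, n = 3 each).

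At the replication fork, Prim1 rose. It encodes the catalytic subunit of primase, which lays down the RNA primers of new strands. It read 5.59, 5.66 and 5.91 in knockout glomeruli and 5.40, 5.42 and 5.46 in control glomeruli. The groups did not overlap, and knockout 3 was the highest. The difference was 0.30 with a standard error of 0.10, or 1.23-fold, with an unadjusted limma p of 0.0329, and the other Prim1 probe set differed by 0.10 with an unadjusted p of 0.23. With arrays left out in turn the difference ran between 0.20 and 0.36, with an unadjusted limma p under 0.05 only in the runs without knockout 1 and without knockout 3. Pcna, the sliding clamp of DNA polymerases and a common stain for dividing cells, read 12.34, 12.30 and 12.38 in knockout glomeruli and 12.33, 12.19 and 12.29 in control glomeruli. These groups overlapped within a span of 0.2, and the difference was 0.07 with a standard error of 0.04. Pola1, the polymerase partner of primase, differed by -0.04, within its standard error of 0.06.

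**Figure D2:**
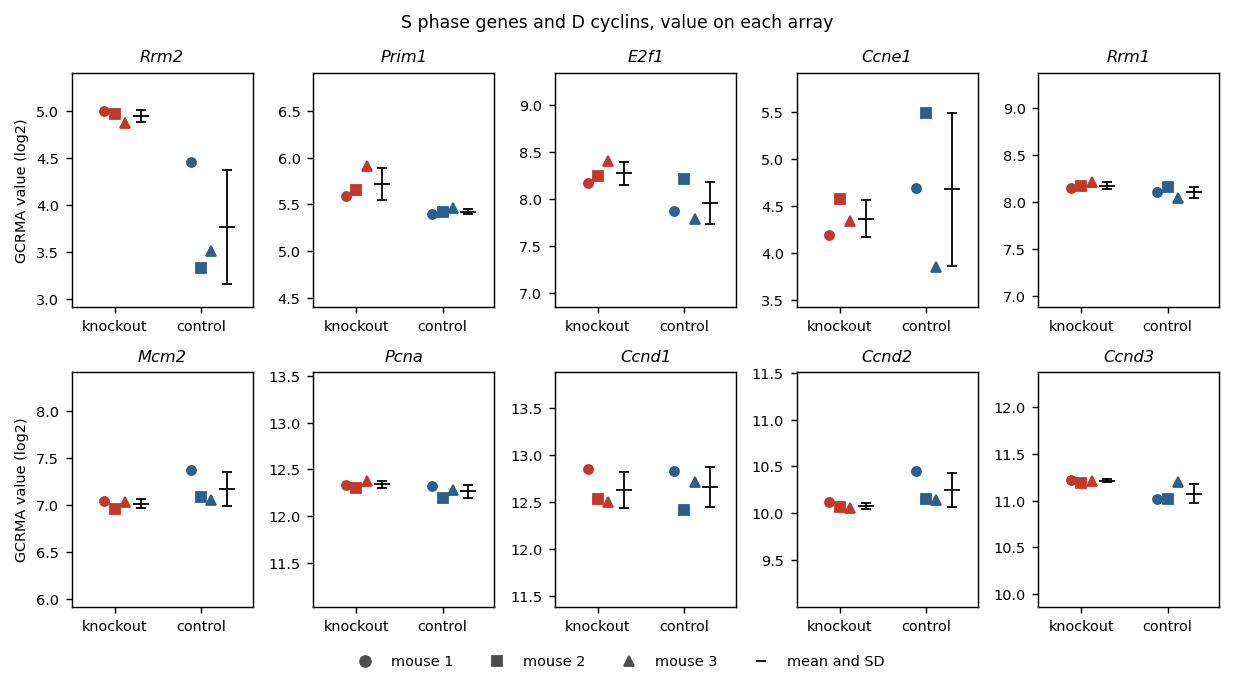
GCRMA values (log2) on each array of S phase genes and D cyclins named in the text, knockout arrays left of control arrays, with a bar for the mean and SD of each group (n = 3). Rrm2 and Prim1 have every knockout array above every control array, Mcm2 and Ccnd2 below, and the other genes overlap.

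Genes of entry into S phase were mixed. E2f1, the transcription factor that starts the S phase wave, read 8.17, 8.25 and 8.40 in knockout glomeruli and 7.87, 8.21 and 7.79 in control glomeruli. Control 2 lay among the knockout arrays and the other controls below them, and the difference of 0.32 (standard error 0.14) had an unadjusted limma p of 0.0861. Without control 2 it was 0.44 with an unadjusted limma p of 0.0131, and that p was 0.109 to 0.214 with any 1 of the other arrays left out. The other E2f1 probe set above the dim level differed by 0.16 with an unadjusted limma p of 0.367. Ccne1, or cyclin E1, which drives Cdk2 at the start of S phase, read 4.19, 4.57 and 4.34 in knockout glomeruli and 4.69, 5.49 and 3.85 in control glomeruli. The controls held both the highest and the lowest array, and the difference of -0.31 had a standard error of 0.47 and became 0.09 without control 2. Cyclin E2 (Ccne2), with a difference of 0.05, and Cdk2, with -0.04, stayed within 2 standard errors. Cdt1, which loads the Mcm ring, differed by 0.21 with a standard error of 0.26, and by -0.03 without control 2. The other Cdt1 probe set above the dim level differed by 0.44 with an unadjusted limma p of 0.113, and control 3 was its lowest array.

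The D cyclins, which link growth signals to the cycle, all read far above the dim level and differed little. Ccnd1 read 12.85, 12.53 and 12.50 in knockout glomeruli and 12.83, 12.42 and 12.71 in control glomeruli. The groups overlapped fully, and the difference of -0.03 had a standard error of 0.16. Ccnd2 read 10.12, 10.06 and 10.06 in knockout glomeruli and 10.45, 10.15 and 10.14 in control glomeruli. Every knockout array was lower, by a narrow margin except against control 1, and the difference of -0.17 had a standard error of 0.10 and an unadjusted limma p of 0.16. All 7 Ccnd2 probe sets differed in this direction, by -0.15 to -0.36. The probe set with a mean of 9.17 differed by -0.34 with its groups apart, and its unadjusted limma p of 0.0447 was the lowest of the 7. Since the 7 probe sets read the same RNA of the same mice, they are not separate evidence. Ccnd3 read 11.22, 11.19 and 11.21 in knockout glomeruli and 11.01, 11.02 and 11.20 in control glomeruli. Its knockout arrays were almost equal, control 3 lay among them, and the difference was 0.13 with a standard error of 0.06 and an unadjusted limma p of 0.0818, which was 0.000253 without control 3, where the difference was 0.20, and 0.145 to 0.205 with any 1 of the other arrays left out.

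Of the mitotic cyclins and their kinase, all 4 genes above the dim level were higher without passing the test. Ccnb2, or cyclin B2, read 5.22, 4.55 and 4.75 in knockout glomeruli and 4.55, 3.26 and 4.19 in control glomeruli. Control 2 was far the lowest and the groups met at 4.55, and the difference of 0.84 (standard error 0.42), or 1.78-fold, had an unadjusted limma p of 0.112. Cdk1, the kinase that the mitotic cyclins switch on, read 5.69, 5.48 and 5.27 in knockout glomeruli and 5.20, 3.70 and 5.16 in control glomeruli. All knockout arrays were higher, but apart from control 2 the gap was narrow, and the difference of 0.79 had a standard error of 0.49 and an unadjusted limma p of 0.177. Without control 2 the differences were 0.46 for Ccnb2 and 0.30 for Cdk1. Ccna2, or cyclin A2, which acts in S phase and again before mitosis, averaged 4.99 ± 0.15 in knockout and 4.61 ± 0.23 in control glomeruli (SD, n = 3 each), a difference of 0.38 with an unadjusted limma p of 0.0652, which was 0.0154 without control 1 and 0.170 without control 2. Its second probe set, at a dim level, differed by 0.76 with an unadjusted limma p of 0.0685. Cks2, a small partner of Cdk1, differed by 0.18 with a standard error of 0.19, and by 0.05 without control 2 or without knockout 3.

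**Figure D3:**
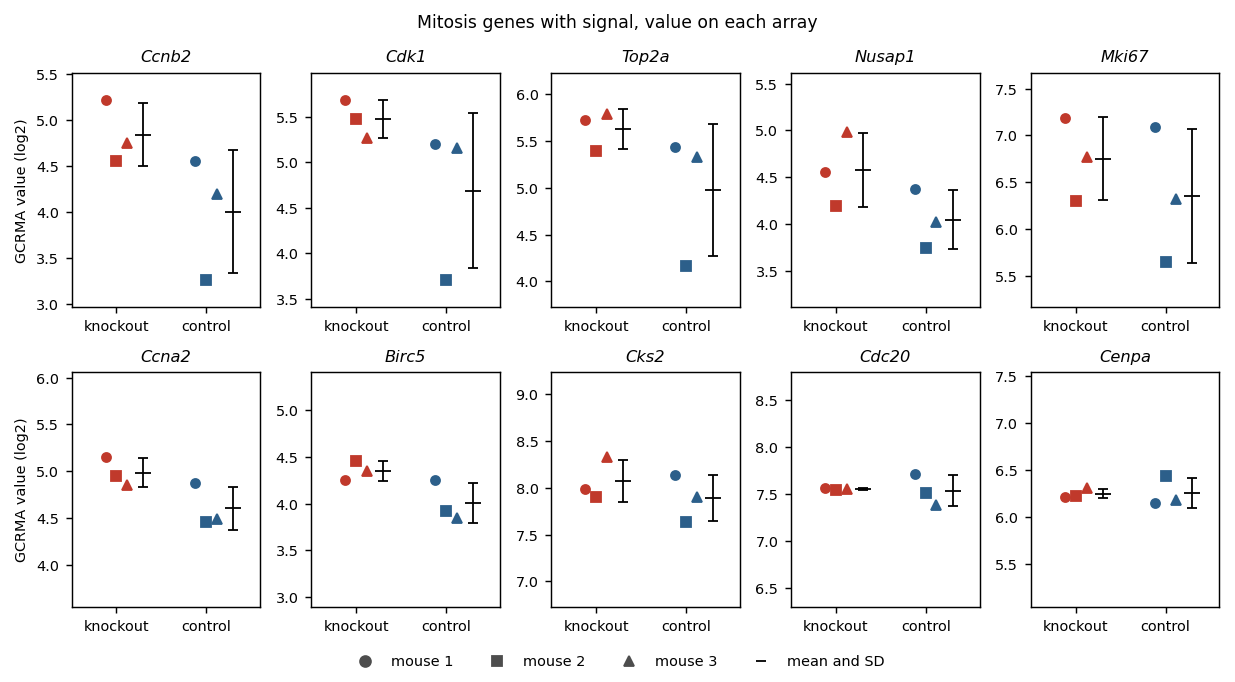
GCRMA values (log2) on each array of mitosis genes named in the text, knockout arrays left of control arrays, with a bar for the mean and SD of each group (n = 3). Control 2 is the lowest array for Ccnb2, Cdk1, Top2a and Mki67, and its Cdk1 value of 3.70 stands well under the other 5 arrays, which lie between 5.16 and 5.69.

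The chromosome genes, the usual markers of proliferation, had the same shape. Top2a, the topoisomerase that untangles sister chromosomes, read 5.72, 5.39 and 5.78 in knockout glomeruli and 5.44, 4.17 and 5.32 in control glomeruli. The groups overlapped at knockout 2, and control 2 lay more than 1 unit under the others. The difference was 0.65 with a standard error of 0.41, and 0.25 without control 2. Mki67, which encodes the Ki-67 antigen of dividing cells, read 7.18, 6.31 and 6.77 in knockout glomeruli and 7.09, 5.65 and 6.32 in control glomeruli. Both groups spread widely, the difference of 0.40 had a standard error of 0.47, and it was 0.05 without control 2.

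Among the genes of the spindle and of the passenger complex, Nusap1, which binds spindle microtubules, read 4.56, 4.19 and 4.99 in knockout glomeruli and 4.37, 3.74 and 4.02 in control glomeruli. Control 1 lay above knockout 2, and the difference of 0.53 (standard error 0.28) had an unadjusted limma p of 0.127, and was 0.38 without control 2. Birc5, or survivin, of the chromosomal passenger complex, averaged 4.35 ± 0.10 in knockout and 4.01 ± 0.21 in control glomeruli (SD, n = 3 each), a difference of 0.34 with an unadjusted limma p of 0.0555, which was 0.00736 without control 1 and 0.148 without control 2. Cenpa, the histone of the centromere, differed by -0.01 with a standard error of 0.09. Cdc20, which activates the complex that ends mitosis, differed by 0.01 with a standard error of 0.09, again from an _x_at probe set. Its other probe set above the dim level differed by 0.28 with a standard error of 0.22. The 6 mitosis genes with means under 6 differed by 0.34 to 0.84, and the 4 with higher means by -0.01 to 0.40.

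Among the dim genes, Bub1, Ube2c and Cdc6 had the largest differences, and none passed the test. The kinase gene Bub1 of the spindle checkpoint averaged 2.78 ± 0.45 in knockout and 2.29 ± 0.06 in control glomeruli (SD, n = 3 each), all knockout arrays being higher, and 1 of them, knockout 1, stood apart at 3.28. Ube2c averaged 3.53 ± 0.19 in knockout and 3.09 ± 0.29 in control glomeruli (SD, n = 3 each), with an unadjusted limma p of 0.0804, which was 0.0462 without control 1, 0.158 without control 2 and 0.202 without knockout 1. Cdc6 averaged 2.56 ± 0.33 in knockout and 2.32 ± 0.00 in control glomeruli (SD, n = 3 each), with 1 knockout array at 2.93. The other 11 dim genes differed by -0.09 to 0.10.

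Different probe sets of a gene could be compared for 15 genes with several above the dim level. For 13 of the 15 these probe sets had 1 direction, and the widest gap between the differences of a gene was 0.26. The plot of all probe sets against their mean level shows that differences over 0.5 were found only under a mean of 6.

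**Figure D4:**
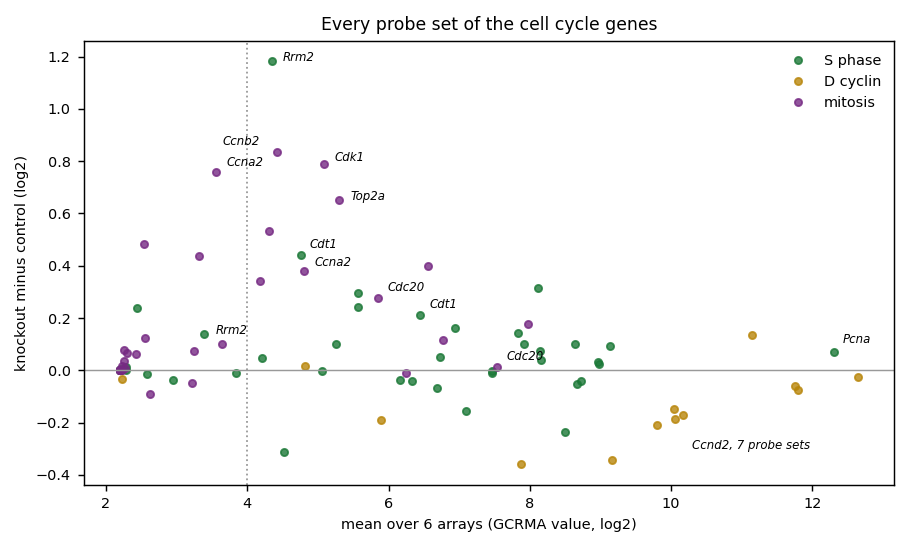
Knockout minus control difference (log2) of each of the 100 probe sets of the list against its mean over 6 arrays (log2), with the dim level of 4 as a dotted line. The differences over 0.5 belong to probe sets with means under 6, those at the floor do not move, and the 7 Ccnd2 probe sets all lie below 0.

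Control 2 was the lowest array for 7 of the 10 mitosis genes above the dim level and for 6 of 16 S phase genes, against 20.9% of all such genes. The median deviation of the 10 mitosis genes from their own means was 0.30, 0.04 and 0.20 in the knockout arrays and 0.12, -0.46 and -0.19 in the control arrays. Control 1 thus lay above knockout 2, and controls 2 and 3 below every knockout array. For the 16 S phase genes the same value was 0.03, -0.01 and 0.09 in the knockout arrays and 0.08, -0.09 and -0.04 in the control arrays, a span far narrower than that of mitosis. The standard deviation over all 6 arrays was 0.35 for the median mitosis gene and 0.15 for the median S phase gene, and 0.12 for all genes above the dim level. The leukocyte markers, of which 10 lay above the dim level, deviated by 0.26, -0.19 and 0.73 in the knockout arrays and by 0.32, -1.86 and 0.83 in the control arrays. Control 2 was the lowest array for both lists, and control 3 was at 0.83 for leukocyte markers and at -0.19 for mitosis genes. The part of leukocytes in the mitosis values was not tested. Without control 2 the mitosis median was 0.27 with 10 of 10 genes higher, the S phase median was 0.03 with 10 of 16 higher, and the 10 leukocyte markers were all lower, by a median of -0.29. Of the 10 mitosis genes, Cdc20 was then higher by only 0.001, and Cks2 and Mki67 by 0.05 each. The share of all genes that were higher without control 2 is not given here.

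**Figure D5:**
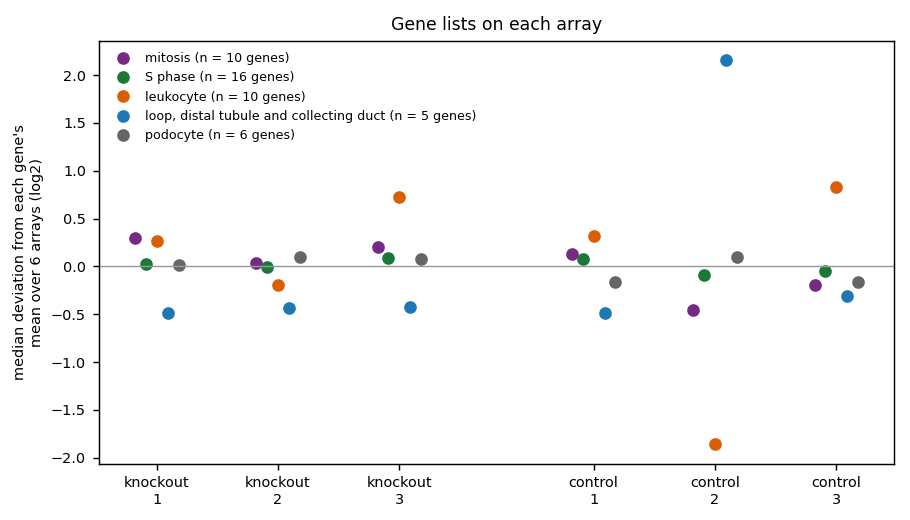
Median deviation (log2) of the genes of a list from each gene's mean over 6 arrays, for each knockout array on the left and each control array on the right. Control 2 is lowest for mitosis genes (-0.46) and leukocyte markers (-1.86) and highest for loop, distal tubule and collecting duct markers (2.16), while S phase genes stay within 0.1 of 0.

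Other genes of the pathway were taken as 3 further lists. Of 55 other replication genes 53 were measured and 42 were above the dim level, of which 31 were higher and 11 lower, with a median difference of 0.06. At an unadjusted limma p under 0.05, 2 of the 53 rose and 1 fell, where 3.34% and 1.51% of all genes did, so these shares were those of the array. Pold4, a small subunit of polymerase delta, averaged 7.99 ± 0.01 in knockout and 7.72 ± 0.06 in control glomeruli (SD, n = 3 each), a difference of 0.27 with a limma adjusted p of 0.805. Rfc1, of the complex that loads Pcna, differed by 0.16, and Dnmt1, which copies DNA methylation after replication, by -0.18. Of 93 other mitosis genes 90 were measured and 46 were above the dim level, of which 35 were higher and 11 lower, with a median of 0.10. Among the 90, 3 rose at an unadjusted p under 0.05 and none fell, again the share of all genes (3.34% and 1.51%) in the upward direction. Incenp, the scaffold of the chromosomal passenger complex to which Birc5 belongs, read 8.07, 8.21 and 8.22 in knockout glomeruli and 7.82, 7.72 and 7.71 in control glomeruli. Its groups were clearly apart, and the difference of 0.42 had a standard error of 0.06 and a limma adjusted p of 0.894. Zwint, of the kinetochore, differed by 0.21 and Cdc16, of the complex that ends mitosis, by 0.18. All 22 genes that control G1 were measured, 17 of them above the dim level, with 10 higher, 7 lower and a median of 0.02. Among the 22, 1 fell at an unadjusted limma p under 0.05, where 1.51% of all genes did, and none rose, where 3.34% did. The gene that fell was the transcription factor gene E2f5, by 0.11 on the log2 scale. No gene of the 3 lists met the criterion. Without control 2 the median of the other mitosis genes was 0.07, with 37 of 46 higher.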

How the data were processed

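Glomerular RNA of 3 dendrin knockout and 3 control mice was measured on 1 array each. The authors normalised the raw intensities with GCRMA (package version 2.30.0) and deposited log2 values of 45101 probe sets, with a floor at 2.20. GCRMA removes background by probe sequence, which draws weak probe sets to the floor. The array values have no count depth, and the number of arrays limits the precision. Gene names came from the platform annotation, in which 34958 probe sets carried 1 gene, 932 several and 9211 none. All probe sets were fitted in limma 3.58.1 under R 4.3.3 (lmFit and eBayes, 2-sided), with Benjamini-Hochberg adjustment over all of them. A gene was represented by its brightest single-gene probe set. The fit was tested on simulated data with known changes. The study's methods named SAM, which served as an alternative, with 20 permutations. Genes named with each array's value were those past a test, those whose groups did not overlap, the 4 largest differences of the S phase and mitosis classes, the D cyclins, Pcna, Top2a and Mki67. In other lists the smallest p-values were named. The genes, lists and tests were chosen with earlier results of these data known. Control 2 was left out of the other lists and the marker lists as an alternative chosen after its marker levels were seen. Counts without Rrm2 were likewise chosen after its values were seen.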

Additional observations from a re-analysis of the deposited data

How the results depend on the processing

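Of 89 summary values under the alternatives, 69 were close to the reported value, and of 302 values of 19 single genes 267 kept direction and side of the threshold, 20 came to pass it, 9 ceased to and 6 turned sign. The count of genes at an unadjusted p under 0.05, reported as 2, was 4 with SAM, 4 when only probe sets with a mean of at least 4 were fitted, 6 when only those spanning over 0.1 were fitted and 4 with array weights. Shares of all genes are given for the reported fit alone, so counts under other settings cannot be read against the array. Leaving out arrays gave 1 to 4, and the genes changed: without control 2 they were E2f1, Rrm1 (a difference of 0.10) and Mcm3 (-0.20). The count past the fold and p criterion, reported as 1, was 0 with the mean over a gene's probe sets, and 0 or 1 when an array was left out, being 1 only without control 1. No gene passed an adjusted p of 0.05 under any setting run. The mitosis median, 0.39, was 0.10 with dim genes included and 0.095 over genes with a mean of at least 6, where 4 genes remained. The S phase minus mitosis median, -0.33, was -0.053 and -0.045 under those settings, and between -0.52 and -0.24 with an array left out. Ccnd1 ran between -0.145 and 0.063, Cdt1 between -0.026 and 0.40 and Ccne1 between -0.73 and 0.093 with an array left out. The cause was not tested. Mice share replicate numbers in the labels, but nothing there ties them, so the numbers were not taken as pairs. The deviations of mice with the same number correlated at 0.09, 0.35 and 0.25. Mice with unlike numbers were not compared, so these values cannot decide whether the mice were paired. With the replicate block 5 genes had an unadjusted p under 0.05 (Rrm2, Prim1, Ccna2 at 0.0149, Ccnb2 at 0.0473 and Ube2c at 0.0139) and 2, Rrm2 and Ccnb2, met the criterion. For these counts, too, the share of all genes under the same fit is not given.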

Other observations

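Pttg1, which encodes securin, the inhibitor of sister chromatid separation, had the largest difference of the other mitosis genes and is given after its values were seen. It read 11.49, 11.63 and 11.59 in knockout glomeruli and 12.32, 8.32 and 8.73 in control glomeruli. Control 1 was the highest of the 6 arrays and the other controls lay about 3 units below every knockout array, so the groups overlapped. The difference was 1.78 on the log2 scale with a standard error of 1.22 and an unadjusted limma p of 0.215.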
